A study of Mus musculus with 222 samples.

Results

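The D-type cyclin genes Ccnd1, Ccnd2 and Ccnd3, the genes of their kinase partners Cdk4 and Cdk6, and Rb1, the gene of their main substrate, were followed in mouse primordial germ cells (PGCs), from which sperm and eggs derive. The 6 genes are 6 of the 24391 gene symbols in the count tables, and each of them had a row in all tables. They were chosen by name with earlier results in view: Ccnd1 was already known as called higher at E11.5 in both sexes and Ccnd2 in XY, so the E11.5 values of all 6 genes in the Eed knockout are a description and carry no test. Sorted PGCs were compared between Control embryos, labelled wild type, and ECKO embryos, labelled Eed -/-, of mixed C57BL/6;129S1/SvlmJ background. Mothers carried OG, an Oct4-GFP reporter, and Eed fl/fl, and fathers carried BC, a Blimp1-Cre driver active in PGCs, and Eed fl/+. Controls came from the same crosses, so they too received a floxed Eed allele from the mother, and the labels give no more of their alleles. Cells were sorted from trypsin-digested gonads as GFP positive. Bulk RNA-seq covered E11.5 XX (3 Control, 4 ECKO), E11.5 XY (4 and 4) and E13.5 XY (4 and 3), and single-cell Smart-seq2 covered E12.5 with 2 embryos for each sex and genotype. The labels do not say whether bulk libraries of a group came from separate embryos, so p-values measure the spread between libraries, which may be technical.

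D-type cyclins bind CDK4 or CDK6 early in the cell cycle, and the paired enzyme phosphorylates RB1. RB1 in its unphosphorylated state holds E2F transcription factors in check, and its phosphorylation lets E2F target genes for DNA replication be transcribed. Transcription of D-type cyclin genes responds to growth signals. EED belongs to Polycomb repressive complex 2, which places a repressive methyl mark on histone H3. PGCs divide while they colonise the gonad, after which XX cells enter meiosis and XY cells enter mitotic arrest.

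Bulk libraries held 415291 to 14974853 counts, with the shallowest in E11.5 XX Controls. At E12.5, 127 of 192 cells were kept, 13 to 22 per embryo. Eed, the targeted gene, had no overlap between genotypes in any sex and stage. At E12.5, though, 41.2% of all genes in XX and 36.8% in XY did not overlap either. In E13.5 XY the Controls averaged 97.5 ± 27.9 CPM of Eed, counts scaled to a fixed library total (SD, n = 4). The ECKO libraries averaged 9.85 ± 5.90 CPM (n = 3). The fall was smaller elsewhere. Mean Eed went from 78.8 to 21.3 CPM in E11.5 XX and from 102 to 32.8 CPM in E11.5 XY. At E12.5 it went from 60.6 to 18.0 CPM in XX and from 46.6 to 14.4 CPM in XY. In edgeR Eed was called in E11.5 XY and E13.5 XY, but not in E11.5 XX (adjusted p = 0.057) or at E12.5 (0.35 in XX, 0.74 in XY). The 9 germ cell markers summed to 1720 to 2250 CPM in E11.5 Controls and 1240 to 2040 CPM in E11.5 ECKO. Their sum was lower in ECKO without overlap at the later stages. At E13.5 it was 1590 to 2810 CPM against 3510 to 4080 CPM in Controls. In E12.5 XX it was 1080 to 1680 CPM against 2930 to 2990 CPM in Controls. In E12.5 XY it was 1850 to 1960 CPM against 2700 to 3000 CPM in Controls. Libraries differed in the markers of other gonadal cells. E11.5 XX ECKO 4 held 1270 CPM of 15 interstitial markers against 54.3 to 178 in the other XX ECKO libraries, and 389 CPM of 9 endothelial markers. E11.5 XY ECKO 4 held 425 CPM of the interstitial list against 53.4 to 81.6 in the other XY ECKO libraries. E13.5 XY Control 3 held 309 CPM of 14 supporting cell markers, with counts in 4 of the 14, against 10.7 to 76.6 in the other 3 Controls. These libraries are named below wherever a value rests on them.

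The normal course of the 6 genes was read from E13.5 and E11.5 XY Controls, fitted in edgeR's quasi-likelihood test over all 22 bulk libraries. Ccnd2, Ccnd3 and Cdk4 fell, while Cdk6 and Rb1 rose. Thus 3 of 6 genes were called lower, where 15.4% of 15094 genes were, and 2 of 6 were called higher, where 17% were, at a Benjamini-Hochberg adjusted p under 0.05. The E11.5 Controls also stand in the E11.5 comparison that was known when the genes were chosen. The 2 stages are in separate count tables, so stage and table cannot be told apart.

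Ccnd3, which encodes cyclin D3, stood at 92.5, 147, 99.4 and 94.7 CPM in the E11.5 Controls and at 20.5, 19.1, 4.34 and 5.72 CPM in the E13.5 Controls. Every E13.5 Control lay below every E11.5 Control. The log2 difference was -3.11 (SE 0.54, edgeR adjusted p = 6.2e-05), the largest fall of the 6 genes. Cdk4, the kinase gene, went from 288, 304, 411 and 360 CPM to 87.0, 102, 87.0 and 77.5 CPM. These groups did not overlap either, and both were tight, with a log2 difference of -1.95 (SE 0.21, edgeR adjusted p = 5.7e-08). Ccnd2, the cyclin D2 gene, went from 66.3, 15.8, 38.6 and 19.1 CPM to 4.04, 2.38, 3.66 and 16.5 CPM. Here E13.5 Control 4, at 16.5 CPM, lay just above the lowest E11.5 Control. The log2 difference was -2.46 (SE 0.60, edgeR adjusted p = 0.0021), and -3.44 without E13.5 Control 4.

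Cdk6 encodes the other kinase partner, which binds the same cyclins as CDK4. It moved opposite to Cdk4, from 4.98, 8.88, 3.09 and 7.21 CPM at E11.5 to 57.4, 44.7, 19.95 and 33.8 CPM at E13.5, with no overlap. Its log2 difference was 2.69 (SE 0.57, edgeR adjusted p = 0.00056). Rb1 rose from 54.3, 64.3, 85.5 and 45.2 CPM to 170, 210, 216 and 162 CPM, again with no overlap (log2 difference 1.61, SE 0.30, edgeR adjusted p = 0.00012). Ccnd1, the cyclin D1 gene, stood at 15.96, 7.69, 17.6 and 2.53 CPM at E11.5 and at 13.4, 21.3, 37.1 and 16.5 CPM at E13.5. Its groups overlapped and it was not called (log2 difference 1.01, SE 0.50, edgeR adjusted p = 0.12). The 5 calls held with every single library left out and in every other setting run.

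**Figure D1:**
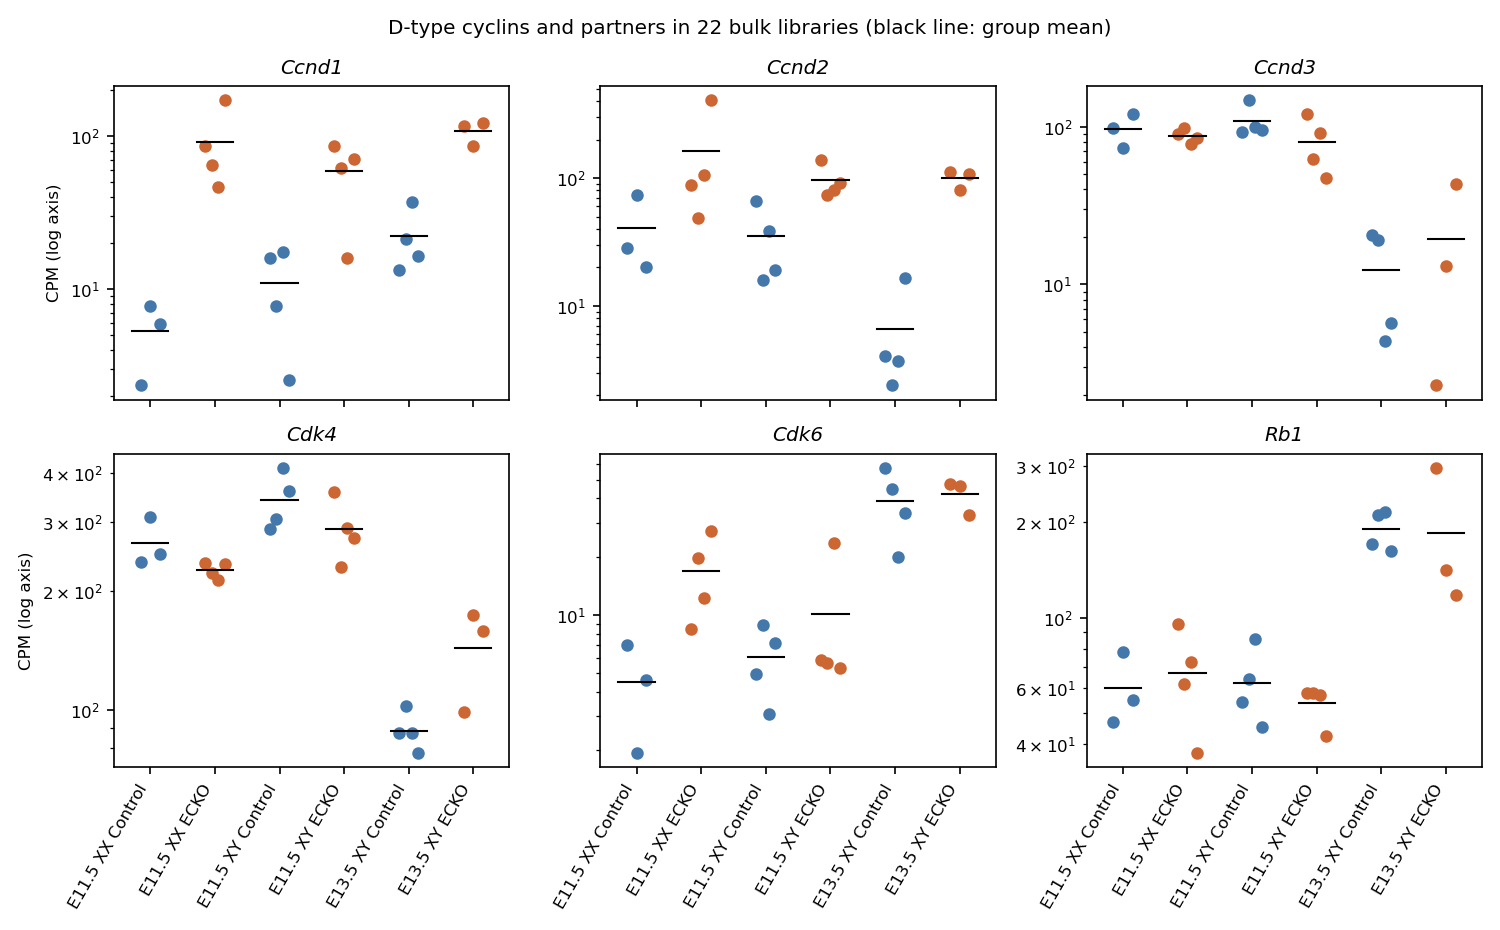
Level of each gene in every bulk library, in CPM on a log axis, with blue points for Controls, orange points for ECKO and a black line at the group mean. Ccnd3 and Cdk4 are low and Cdk6 and Rb1 are high in the E13.5 groups of both genotypes, whereas Ccnd2 is low in E13.5 Controls (2.38 to 16.5 CPM) but not in E13.5 ECKO (80.9 to 112 CPM).

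Promoter windows are shown for the 3 genes present in the promoter set used here, which lacked Ccnd1, Ccnd2 and Rb1. They are shown because 2 of them, Ccnd3 and Cdk4, fell together between the stages while Cdk6 rose. Each window runs from 250 bases before to 50 bases after an annotated start, on the plus strand of GRCm38.p6, and Ccnd3 has 2 annotated starts, between which the counts do not tell. Capitals mark matches to CACGTG (the MYC E-box) or to GGGCGG (the GC box), on either strand, where CCGCCC is the GC box read on the other strand and overlapping matches merge.
Cdk4, chr10:127063285-127063584: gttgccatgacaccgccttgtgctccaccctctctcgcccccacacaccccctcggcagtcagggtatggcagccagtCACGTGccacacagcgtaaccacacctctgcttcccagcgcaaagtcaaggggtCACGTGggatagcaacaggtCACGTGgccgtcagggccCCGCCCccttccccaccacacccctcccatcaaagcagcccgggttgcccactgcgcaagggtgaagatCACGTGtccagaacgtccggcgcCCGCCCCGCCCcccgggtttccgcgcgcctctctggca
Cdk6, chr5:3343643-3343942: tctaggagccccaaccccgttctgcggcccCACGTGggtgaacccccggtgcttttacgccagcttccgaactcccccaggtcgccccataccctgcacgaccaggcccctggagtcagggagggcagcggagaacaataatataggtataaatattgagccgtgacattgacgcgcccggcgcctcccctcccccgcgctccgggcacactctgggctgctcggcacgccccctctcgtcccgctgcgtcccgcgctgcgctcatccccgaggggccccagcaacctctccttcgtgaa
Ccnd3, upstream start, chr17:47504801-47505100: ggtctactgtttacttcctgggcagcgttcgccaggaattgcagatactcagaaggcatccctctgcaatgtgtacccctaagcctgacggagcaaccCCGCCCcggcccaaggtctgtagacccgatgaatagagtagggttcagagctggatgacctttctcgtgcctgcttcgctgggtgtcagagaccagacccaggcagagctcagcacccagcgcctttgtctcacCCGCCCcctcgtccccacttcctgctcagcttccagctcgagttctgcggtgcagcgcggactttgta
Ccnd3, downstream start, chr17:47593217-47593516: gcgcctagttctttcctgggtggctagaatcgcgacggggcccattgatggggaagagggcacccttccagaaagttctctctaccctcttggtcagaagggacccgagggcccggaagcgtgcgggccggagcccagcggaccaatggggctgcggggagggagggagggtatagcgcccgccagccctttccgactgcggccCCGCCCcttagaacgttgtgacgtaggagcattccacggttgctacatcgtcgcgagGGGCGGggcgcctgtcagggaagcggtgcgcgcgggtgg

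The Cdk4 window holds 4 E-boxes, a number reached or passed in 8 of the 32851 promoter windows of the same length. The Cdk6 window holds 1 E-box, and both Ccnd3 windows hold 0. At least 1 E-box is found in 7.15% of all windows. GC boxes number 3 in Cdk4, 0 in Cdk6 and 2 in each Ccnd3 window, and 35.7% of all windows hold at least 1. The E2F words searched (TTTGGCGC, TTTCCCGC, TTTGCCGC and TTTCGCGC, both strands, present in 2.26% of windows) and the cyclic AMP response element TGACGTCA (1.79%) have no match in these 4 windows. The observed over expected CpG ratio is 0.702 in Cdk4, 0.851 in Cdk6, and 0.577 and 0.849 in the upstream and downstream Ccnd3 windows, against a median of 0.384 over all windows.

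Between the sexes, XX and XY Controls were compared at E11.5 in the same fit and at E12.5 over embryo sums, with sex and table again inseparable. At E11.5 none of the 6 genes was called by edgeR or by DESeq2, 0 had an unadjusted p under 0.05, and 0.159% of all genes were called. The largest difference was in Ccnd1, at 2.35, 7.75 and 5.92 CPM in XX against 2.53 to 17.6 CPM in XY (log2 difference -0.87, SE 0.64, edgeR adjusted p = 0.88). At E12.5 none of the 6 was called in edgeR, where 0.043% of genes were. Ccnd2 was the 1 gene of the 6 with an unadjusted p under 0.05. It was also the 1 that DESeq2 called (adjusted p = 0.039), among 357 genes that DESeq2 called in all. It stood at 1.60 and 0.441 CPM in XX Control embryos and at 14.6 and 5.50 CPM in XY Control embryos (log2 difference -3.28, SE 1.02, edgeR adjusted p = 0.78).

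In E11.5 ECKO cells the cyclin genes Ccnd1 and Ccnd2 stood above Controls. In XX, Ccnd1 was at 2.35, 7.75 and 5.92 CPM in Controls and at 85.9, 64.3, 46.1 and 171 CPM in ECKO. No ECKO library came near a Control, and the log2 difference was 3.93 (SE 0.54). The highest library was ECKO 4, the one with the most interstitial and endothelial markers, and without it the difference was 3.45. In XY, Ccnd1 was at 15.96, 7.69, 17.6 and 2.53 CPM in Controls and at 86.0, 61.9, 16 and 70.7 CPM in ECKO. Here ECKO 3 sat inside the Control range while the other 3 ECKO libraries stood above it (log2 difference 2.43, SE 0.53, and 2.34 without ECKO 4).

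Ccnd2 in E11.5 XY was at 66.3, 15.8, 38.6 and 19.1 CPM in Controls and at 138, 74.4, 80.9 and 92.1 CPM in ECKO, with no overlap and a log2 difference of 1.47 (SE 0.37). In XX it was at 28.2, 74.3 and 20.1 CPM in Controls and at 89.0, 48.9, 105 and 407 CPM in ECKO. ECKO 2 lay below the highest XX Control, and ECKO 4 lay far above the rest. The XX log2 difference of 1.97 (SE 0.67) went to 0.96 without ECKO 4, and to 2.84 without Control 2. Control 2, the highest XX Control, held the most interstitial and endothelial markers of the XX Controls (165 and 121 CPM). In XY the highest Control, Control 1, held 160 CPM of interstitial markers against 42.2 to 60.5 CPM in the other XY Controls. The highest XY ECKO library, ECKO 1, held 55.6 CPM of them, and ECKO 4 held 425 CPM. What part interstitial or endothelial cells in these libraries have in the Ccnd2 values was not tested. In bulk RNA more cells of another type cannot be told apart from more RNA per germ cell.

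Of the remaining genes at E11.5, Ccnd3 differed by -0.15 (SE 0.25) in XX and -0.42 (SE 0.25) in XY on the log2 scale, and Cdk4 by -0.23 in both sexes (SE 0.18 in XX, 0.16 in XY). Rb1 differed by 0.13 (SE 0.34) in XX and -0.20 (SE 0.23) in XY. Cdk6 in XX was at 7.04, 1.94 and 4.60 CPM in Controls and at 8.47, 19.7, 12.3 and 27.2 CPM in ECKO, which did not overlap, though the first 2 of these Control values rest on 3 counts each (log2 difference 2.01, SE 0.74). In XY, 3 of the 4 ECKO libraries were within the Control range of Cdk6, at 5.33 to 5.88 CPM, and ECKO 3 was at 23.6 CPM, so that the log2 difference of 0.76 went to -0.06 without it. Of the 6 genes, 2 were among the 1.51% of genes called higher in XY and 1 was among the 0.136% called higher in XX. The genes were selected on those calls, so nothing is read from these counts. Whether the sexes differ in the size of the E11.5 response was not tested.

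At E12.5 the single cells of an embryo were added up, and the 8 sums entered 1 edgeR fit. Ccnd2 stood at 1.60 and 0.441 CPM in XX Control embryos and at 20.9 and 199 CPM in XX ECKO embryos. In XY it stood at 14.6 and 5.50 CPM in Controls and at 178 and 134 CPM in ECKO. ECKO embryos were above Controls in both sexes, but neither difference passed the edgeR test over all genes (XX log2 difference 6.74, SE 1.18, edgeR adjusted p = 0.091; XY log2 difference 3.96, SE 1.03, edgeR adjusted p = 0.59). DESeq2 called both, with adjusted p = 3.6e-09 in XX and 0.0040 in XY. It called 1085 genes in all in XX and 395 in XY, where edgeR called 3 and 1. With any 1 of the 4 XX embryos left out, the XX log2 difference of Ccnd2 ran from 4.34 to 7.94. Those fits have a lone embryo in a group.

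Ccnd1 stood at 24.2 and 4.52 CPM in XX Controls and at 64.7 and 51.9 CPM in XX ECKO. In XY it stood at 18.9 and 0.297 CPM in Controls and at 55.0 and 38.9 CPM in ECKO. Again both ECKO embryos lay above both Controls in each sex, without a call (XX log2 difference 2.02, SE 1.30, edgeR adjusted p = 0.54; XY log2 difference 2.29, SE 1.32, edgeR adjusted p = 0.78). Without Control embryo E279.1, which leaves a lone XY Control embryo, the XY log2 difference was 7.31.

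Ccnd3 and Cdk4 lay on the other side. Ccnd3 was at 664 and 718 CPM in XX Controls against 463 and 148 CPM in XX ECKO, and at 667 and 395 CPM in XY Controls against 103 and 201 CPM in XY ECKO. Every ECKO embryo was below every Control of its sex, as was its summed level of germ cell markers (XX log2 difference -1.18, SE 0.59, edgeR adjusted p = 0.44; XY log2 difference -1.81, SE 0.60, edgeR adjusted p = 0.70). Cdk4 was at 1239 and 1096 CPM in XX Controls against 967 and 595 CPM in XX ECKO, and at 1505 and 1339 CPM in XY Controls against 710 and 888 CPM in XY ECKO, likewise with no overlap and no call (edgeR adjusted p = 0.61 and 0.77). Cdk6 and Rb1 were low, at no more than 21.6 and 19.5 CPM in any embryo, and Cdk6 had 0 counts in XX Control embryo E301.1. The single cells and the bulk RNA were amplified by different methods, so E12.5 levels were not compared with bulk levels.

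In all, 0 of the 6 genes passed edgeR's test in XX or XY at E12.5, where 0.0215% and 0.00717% of genes did. By unadjusted p under 0.05 there was 1 in XX (Ccnd2) and 2 in XY (Ccnd2 and Ccnd3), and DESeq2 called Ccnd2 in each sex. Embryos of the 2 genotypes did not overlap in 4 of 6 genes in XX and 6 of 6 in XY. With 2 embryos a group this is common: 41.2% of all genes in XX and 36.8% in XY did not overlap. The ECKO difference was not found to differ between the sexes for any of the 6 genes (edgeR interaction, adjusted p = 1.0 for each), with 0 below an unadjusted p of 0.05 and 0 called by DESeq2.

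**Figure D2:**
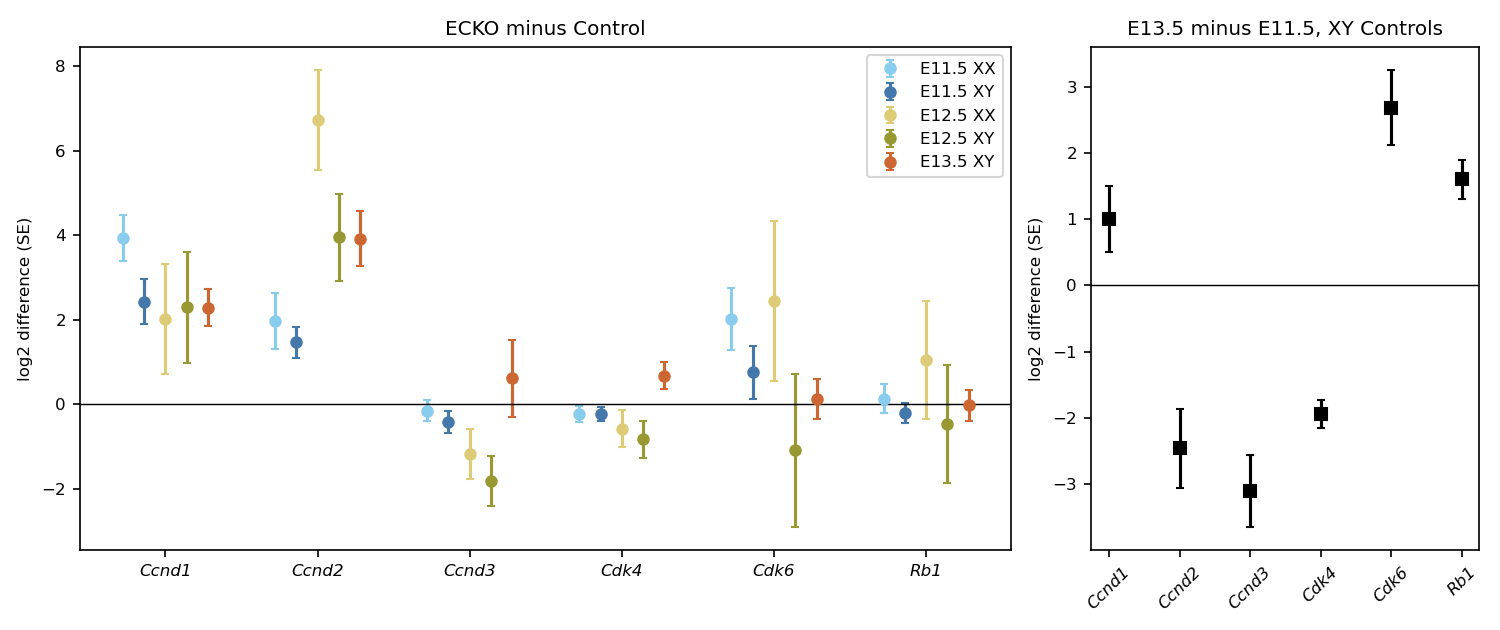
Left, log2 difference of ECKO minus Control for each gene in 5 comparisons, and right, log2 difference of E13.5 minus E11.5 in XY Controls, with bars of 1 SE from the fits. Ccnd1 and Ccnd2 lie above 0 in all 5 ECKO comparisons, and Ccnd3 and Cdk4 lie below 0 at E11.5 and E12.5 and above 0 at E13.5, with called differences at E13.5 for Ccnd1 and Ccnd2. The E13.5 value of Ccnd3 is -0.69 without ECKO 3.

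The single cells show how the cyclins were spread over cells. A cell was scored as holding a gene from 10 CPM upwards. Intervals are exact 95% Clopper-Pearson intervals and cover counting of cells within an embryo only. Ccnd3 was held by 14 of 14 and 15 of 16 cells in the XX Control embryos and by 13 of 13 and 22 of 22 cells in the XY Control embryos. Ccnd2 was held by 1 of 14 (7.14%, interval 0.181 to 33.9%) and 1 of 16 XX Control cells and by 2 of 13 and 4 of 22 XY Control cells. In ECKO embryos it was held by 8 of 13 and 9 of 13 XX cells and by 18 of 18 (interval 81.5 to 100%) and 16 of 18 XY cells.

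Ccnd1 was held by 4 of 14 and 1 of 16 XX Control cells and by 1 of 13 and 1 of 22 XY Control cells, against 10 of 13 and 9 of 13 XX ECKO cells and 14 of 18 and 9 of 18 XY ECKO cells. The median level over cells was 0 for both Ccnd1 and Ccnd2 in all 4 Control embryos. In ECKO embryos the median of Ccnd2 was 25 and 36.5 CPM in the XX embryos and 119 and 151 CPM in the XY embryos, and that of Ccnd1 ran from 7.05 to 46.5 CPM. After each cell was thinned to 50000 counts, any count of Ccnd2 was seen in 0 to 18.2% of Control cells and in 53.9 to 94.4% of ECKO cells by embryo.

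**Figure D3:**
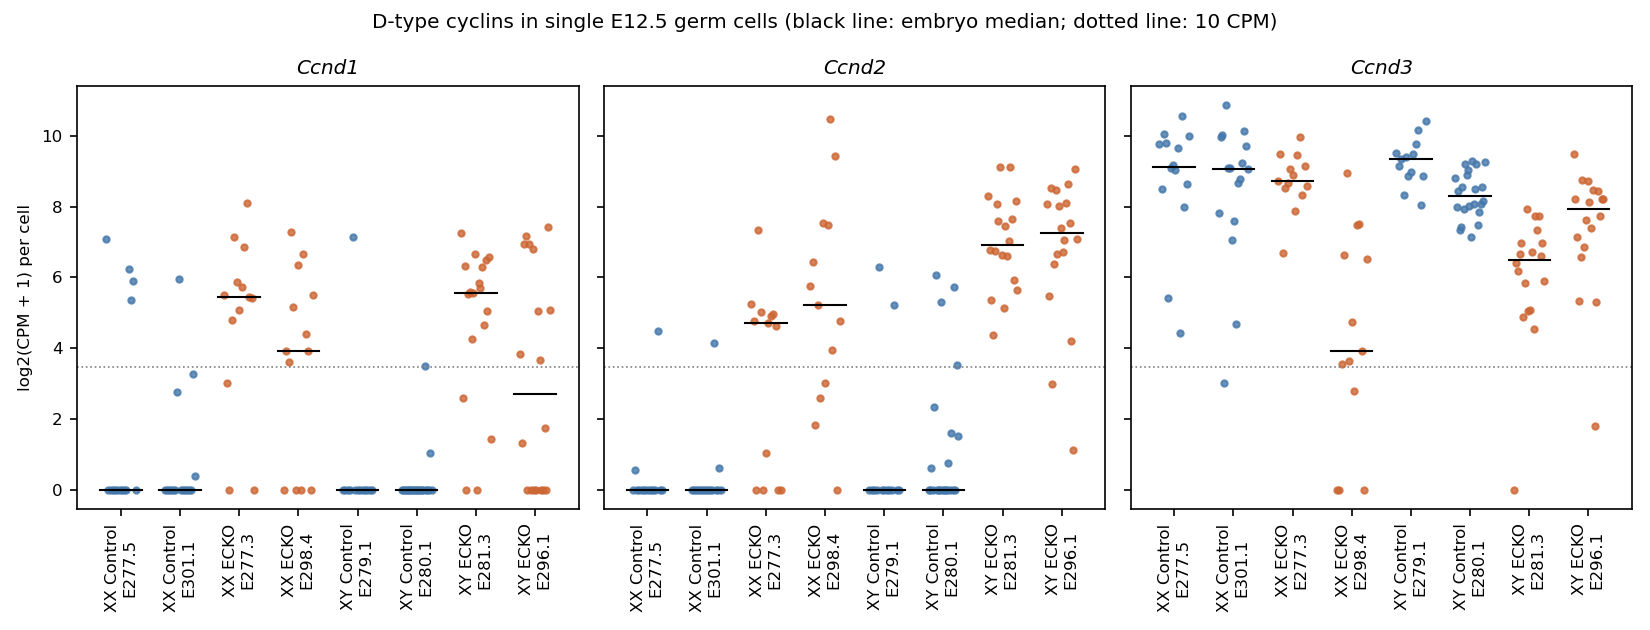
Level of the 3 cyclin genes in each kept E12.5 cell, as log2(CPM + 1), by embryo, with blue points for Control cells, orange points for ECKO cells, a black line at the embryo median and a dotted line at 10 CPM. Most Control cells are at 0 for Ccnd1 and Ccnd2, and in XX ECKO embryo E298.4 the median of Ccnd3 is 14.1 CPM against 318 to 653 CPM in Control embryos.

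Most Control cells held Ccnd3 with neither of the other cyclins: 10 of 14 and 13 of 16 XX cells and 11 of 13 and 17 of 22 XY cells. In ECKO embryos that pattern was seen in 2 of 13 and 0 of 13 XX cells and in 0 of 18 and 1 of 18 XY cells. ECKO cells most often held all 3 cyclins, in 7 of 13 and 5 of 13 XX cells and in 13 of 18 and 8 of 18 XY cells, a pattern found in 1 of 14, 0 of 16, 1 of 13 and 0 of 22 Control cells. Cells with Ccnd2 but without Ccnd3 numbered 0 in all Control embryos and 0 in E277.3. In E298.4, 2 cells held Ccnd2 alone and 1 held Ccnd1 and Ccnd2, and each XY ECKO embryo had 1 such cell.

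Most Ccnd2-holding ECKO cells held Dazl or Ddx4, as did most ECKO cells. Dazl or Ddx4 was at 10 CPM or more in 8 of 8 and 8 of 9 such cells in the XX ECKO embryos. In the XY ECKO embryos it was in 16 of 18 and 12 of 16. The others held neither, and in E298.4 Wt1, Gata4 or Nr5a1 was held by 4 of the 9. Among all ECKO cells Dazl or Ddx4 was held by 13 of 13 and 12 of 13 in XX. In XY it was held by 16 of 18 and 14 of 18. Pou5f1, also a germ cell marker, was held by 12 of 13 and 2 of 13 XX ECKO cells. In XY ECKO embryos it was held by 5 of 18 and 17 of 18 cells. XX Controls had 14 of 14 and 14 of 16 cells with Pou5f1, and XY Controls 13 of 13 and 22 of 22. In the embryo sums the 9 germ cell markers did not move alike. Dazl and Ddx4 overlapped between genotypes in each sex. Dnd1 was at 1270 and 1340 CPM in XX Controls against 495 and 102 CPM in XX ECKO. In XY it was at 1180 and 1100 CPM against 410 and 729 CPM. Pou5f1 was likewise lower without overlap in each sex, and Dppa3, Kit, Prdm1 and Tfap2c in XX only. Nanos3 was higher without overlap in XY ECKO. Of all genes, 41.2% in XX and 36.8% in XY did not overlap. Cells were scored for 6 somatic markers chosen from the supporting and interstitial lists: Col1a1, Col1a2, Pdgfra, Wt1, Gata4 and Nr5a1. At least 1 of the 6 was held by 2 of 13 and 5 of 13 XX ECKO cells. It was held by 0 of 18 and 1 of 18 XY ECKO cells and by 0 Control cells. These counts hold for the 6 only. Among markers left out, Fst had counts in the sum of each ECKO embryo and of no Control embryo. Ptch1, also left out, was lower without overlap in XX ECKO embryos and higher without overlap in XY ECKO embryos. How far the cell counts and the levels below depend on the choice of the 6 was not tested. Over the whole list of 14, supporting markers summed to 2.08 CPM or less in XX Controls, 19.9 and 143 CPM in XX ECKO, 34.1 and 0 CPM in XY Controls and 13.1 and 4.23 CPM in XY ECKO, and the 34.1 CPM of E279.1 was 32.5 CPM of Wnt4. The 15 interstitial markers summed to 282 CPM in E298.4 and to at most 13.3 CPM in the other 7 embryos. Among ECKO cells with none of the 6, Ccnd2 was held by 7 of 11 and 5 of 8 XX cells and by 18 of 18 and 16 of 17 XY cells. The summed level in these cells, before TMM scaling, was 24.1 and 73.5 CPM for the XX embryos, and 157 and 156 CPM for the XY embryos. Over all cells it was 22.7 and 212 CPM in XX. The level of embryo E298.4 was thus 212 CPM with and 73.5 CPM without the 5 cells that held any of the 6 markers. Ccnd3 in the E298.4 cells with none of the 6 was at 54.1 CPM, still below the 358 to 705 CPM of Control embryos on the same scale.

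Eed transcript was at 10 CPM or more in 12 of 14, 15 of 16, 10 of 13 and 20 of 22 Control cells and in 6 of 13, 6 of 13, 13 of 18 and 6 of 18 ECKO cells. In XY ECKO embryo E281.3, Ccnd2 was held by 13 of 13 cells with Eed transcript and by 5 of 5 without it, and in E296.1 by 5 of 6 and 11 of 12. In XX ECKO embryo E277.3 it was held by 5 of 6 cells with Eed transcript and 3 of 7 without, and in E298.4 by 3 of 6 and 6 of 7. Counts per gene do not say whether a cell's Eed transcript came from an intact allele.

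**Figure D4:**
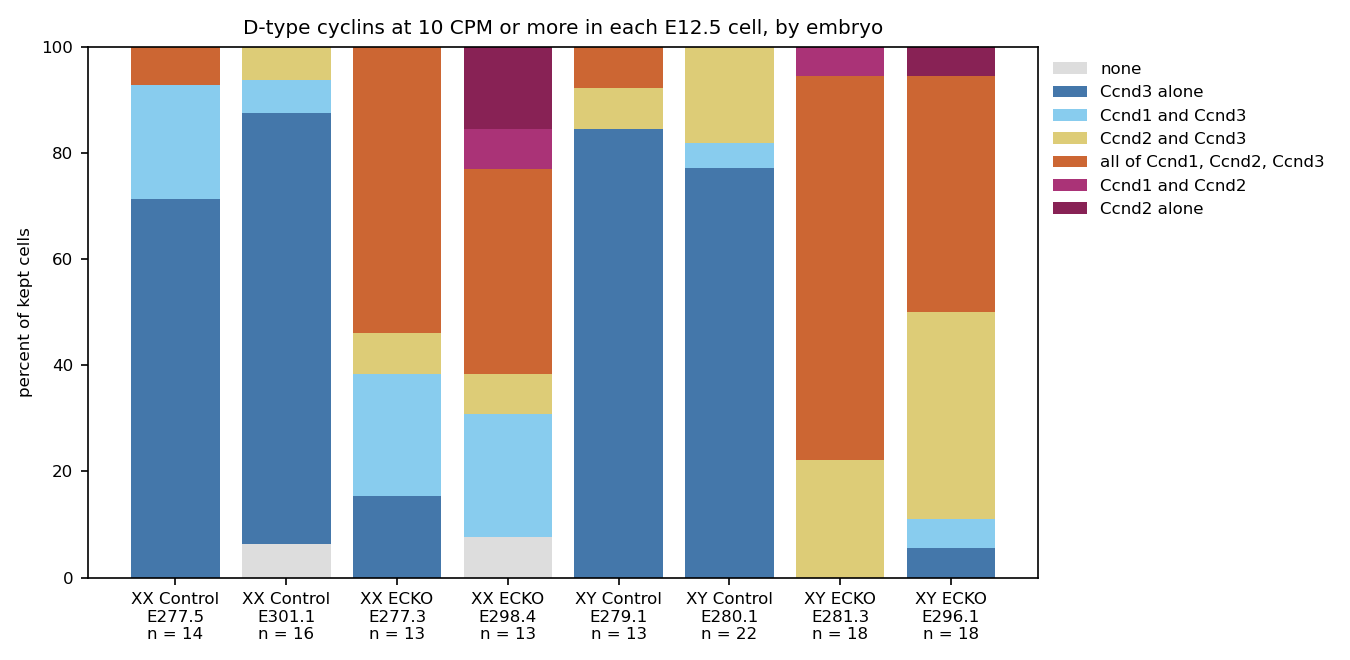
Percent of kept E12.5 cells in each embryo by which of the 3 cyclin genes they held at 10 CPM or more, with the number of cells under each bar. Ccnd3 alone (dark blue) is the main pattern in the 4 Control embryos and is seen in 0 to 2 cells of each ECKO embryo.

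At E13.5 in XY the difference was tested on libraries separate from those of the E11.5 calls known when the genes were chosen. Earlier results of these data were known by then, so the test may not be independent of that choice. Ccnd2 was at 4.04, 2.38, 3.66 and 16.5 CPM in Controls and at 112, 80.9 and 107 CPM in ECKO. Every ECKO library stood far above every Control, at a level near that of E11.5 ECKO (74.4 to 138 CPM), and Ccnd2 rose by a log2 difference of 3.93 (SE 0.66, edgeR adjusted p = 0.011). The call held with each library left out, and the difference was 4.92 without Control 4. Ccnd1 was at 13.4, 21.3, 37.1 and 16.5 CPM in Controls and at 116, 85.4 and 122 CPM in ECKO, without overlap, and rose by 2.29 on the log2 scale (SE 0.44, edgeR adjusted p = 0.016). Its call was lost without Control 1, Control 4, ECKO 2 or ECKO 3, with adjusted p between 0.052 and 0.068. Thus 2 of 6 genes were called higher, where 2.99% of 12336 genes were. These 2 are the genes already known as called higher at E11.5 when the 6 were chosen. The share over all genes is therefore not a like background.

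The kinase genes and Rb1 did not pass at E13.5. Cdk4 was at 87.0, 102, 87.0 and 77.5 CPM in Controls and at 98.3, 174 and 158 CPM in ECKO, with ECKO 1 inside the Control range (log2 difference 0.68, SE 0.32, edgeR adjusted p = 0.22). Ccnd3 was at 20.5, 19.1, 4.34 and 5.72 CPM in Controls and at 2.29, 13.2 and 43.0 CPM in ECKO, a spread in which the log2 difference of 0.62 (SE 0.91, edgeR adjusted p = 0.73) turned to -0.69 without ECKO 3. Rb1 was at 170, 210, 216 and 162 CPM in Controls and at 295, 142 and 118 CPM in ECKO (log2 difference -0.02, SE 0.37). Cdk6 was at 57.4, 44.7, 19.95 and 33.8 CPM in Controls and at 47.3, 46.6 and 32.9 CPM in ECKO (log2 difference 0.12, SE 0.47). The signs for Rb1 and Cdk6 turned with other scalings or with a library left out. Other markers moved beside these values. The germ cell markers summed to 1590 to 2810 CPM in ECKO against 3510 to 4080 CPM in Controls. Of the 9, 0 were called and 4 had an unadjusted p under 0.05. They did not all move the same way. By log2 difference Dppa3 (-1.38), Kit (-1.94), Tfap2c (-2.03), Dazl (-0.555), Pou5f1 (-0.746) and Prdm1 (-0.564) were lower in ECKO. Ddx4 (0.153), Dnd1 (0.937) and Nanos3 (3.63) were higher, with Nanos3 at 12.4 CPM in ECKO and 1.01 CPM in Controls. Endothelial markers summed to 7.12 to 40.3 CPM against 12.3 to 14.7 CPM, supporting cell markers to 32.8 to 46.9 CPM against 10.7 to 309 CPM, and interstitial markers to 96.2 to 272 CPM against 154 to 231 CPM. Of the interstitial list Pdgfra was called higher (21.7 CPM in ECKO, 0.866 CPM in Controls, edgeR adjusted p = 0.043). The part of other cells, or of fewer germ cells, in the E13.5 values was not tested. Without Control 3, the library with most supporting markers, Ccnd2 differed by 3.82 and Ccnd1 by 2.73. Whether the ECKO difference of any of the 6 genes changes between E11.5 and E13.5 was not tested, since the E11.5 values took part in choosing them.

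Set in order by group mean over the bulk libraries, Ccnd1 had the 3 ECKO groups at the top (108 ± 19.7 CPM in E13.5 XY, n = 3; 91.8 ± 55.1 in E11.5 XX, n = 4; 58.6 ± 30.1 in E11.5 XY, n = 4), then the Controls of E13.5 XY (22.03 ± 10.53, n = 4), E11.5 XY (10.9 ± 7.07, n = 4) and E11.5 XX (5.34 ± 2.75, n = 3). All neighbours in that order overlapped. Ccnd2 also had the 3 ECKO groups on top (163 ± 165 CPM in E11.5 XX, 100.2 ± 16.9 in E13.5 XY, 96.5 ± 28.9 in E11.5 XY). Its lowest E11.5 XY ECKO library, at 74.4 CPM, barely cleared the highest E11.5 XX Control, at 74.3 CPM, and E13.5 XY Controls came last (6.64 ± 6.59). For Ccnd3, Cdk4, Cdk6 and Rb1 the order followed stage: both E13.5 groups stood at one end. All libraries of the nearest E11.5 group were clear of E13.5 for Ccnd3, Cdk4 and Rb1, while for Cdk6 the E11.5 XX ECKO libraries (8.47 to 27.2 CPM) overlapped the E13.5 Controls. Levels of different genes were not compared, since no transcript lengths were used here.

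Across the 22 bulk libraries, Ccnd1 and Ccnd2 had a Spearman rho of 0.72, Ccnd3 and Cdk4 of 0.80, and Cdk4 and Cdk6 of -0.77. These are descriptions over libraries that share groups, stage and depth. Among 10438 genes with a mean of at least 5 CPM, the 2 most like Ccnd1 in rank were Chd7 (rho 0.89), a chromatin remodeller gene, and Dgkk (0.88), a diacylglycerol kinase gene. For Ccnd2 they were Shank3 (0.90), a synaptic scaffold gene, and Trio (0.89), a guanine nucleotide exchange factor gene. For Ccnd3 they were Rpa1 (0.91), a single-stranded DNA binding protein gene, and Folr1 (0.90), a folate receptor gene. For Cdk4 they were Mrpl33 (0.94), of the mitochondrial ribosome, and Atp5j (0.93), of ATP synthase. For Cdk6 they were Fbxl20 (0.87) and Ncoa6 (0.86), and for Rb1 they were Fmnl2 (0.91) and Ttf1 (0.90).

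The RB pathway list holds 35 other genes: 5 of the later cyclins and their kinase, 7 CDK inhibitors, 2 relatives of Rb1, 10 E2F and DP factors, 6 subunits of CDK-activating, phosphatase and ligase enzymes, and 5 of the DREAM complex. In E11.5 XY the list's median log2 difference was -0.15 against 0.00 over all genes. Of 31 tested, 2 rose and 0 fell, where 1.51% of all genes rose and 0.616% fell. Both are CDK inhibitor genes: Cdkn1a (p21) rose from 60.9 ± 11.8 to 136 ± 21.1 CPM (n = 4 each, log2 difference 1.17, SE 0.19, edgeR adjusted p = 0.0058), and Cdkn1c (p57) from 10.4 ± 0.973 to 71.2 ± 79.4 CPM (log2 difference 2.80, SE 0.53, edgeR adjusted p = 0.013). Cdkn1c was at 190 CPM at most, and its difference was 1.62 without ECKO 4. Its call was lost without Control 2 or Control 4 (edgeR adjusted p = 0.052 each), and the list had 3 called genes without Control 1. Cdkn1b (p27) differed by 1.35 and Ccne1, a cyclin E gene, by -0.51, neither called. In E11.5 XX, 30 were tested and 0 were called by edgeR, with 6 at an unadjusted p under 0.05 and 2 called by DESeq2. There Cdkn1a differed by 1.57, Cdkn1c by 3.12, Cdkn1b by 0.30 and Ccne1 by -1.21. The Cdkn1c value was 1.91 without ECKO 4, 2.46 without Control 3 and 4.06 without Control 2, and that of Cdkn1b 0.90 without Control 2.

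At E13.5, 31 of the 35 were tested, 1 rose and 2 fell, where 2.99% of all genes rose and 1.9% fell. The median was -0.83 against 0.05 over all genes. Cdkn1c rose from 15.8 to 99.0 CPM (log2 difference 2.68, SE 0.69, edgeR adjusted p = 0.047), and the call was lost with any library left out except Control 3 (log2 difference 1.84 without ECKO 1). Cdc25a, a phosphatase gene that activates cyclin-dependent kinases, fell by 1.85 (edgeR adjusted p = 0.031) and Lin9, of the DREAM complex, by 1.81 (edgeR adjusted p = 0.042). With a library left out the list had 0 to 8 called genes: 0 without Control 1, 2 or 4 or without ECKO 2 or 3, 2 without Control 3 and 8 without ECKO 1. Ccne1 differed by -1.85, Cdkn1b by 1.47 and Cdkn1a by -0.22, none of them called, and these were -1.26 for Ccne1 without Control 3 and -1.29 for Cdkn1a without ECKO 3. Between E11.5 and E13.5 Controls, 34 were tested, 9 rose and 4 fell, where 17% of all genes rose and 15.4% fell, with a median of 0.37 against -0.06. Tfdp1, the E2F partner gene, rose by 1.55, Lin9 by 1.69 and Rbl2, a relative of Rb1, by 3.59. The Rbl2 value was 2.41 without E13.5 Control 3, the highest library at 110 CPM against a group median of 19.9 CPM. Ccne1 fell by 1.04 (edgeR adjusted p = 0.046), a call lost without any 1 library except E13.5 Control 3, and Cdkn1a, Cdkn1b and Cdkn1c differed by -0.97, -0.60 and 0.60, not called. Between XX and XY Controls at E11.5 none was called, with 1 at an unadjusted p under 0.05.

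E2F targets, the genes whose transcription RB1 restrains, were not called higher in any ECKO comparison. The list of 22, all tested, holds 14 replication genes, 6 nucleotide supply genes and 2 cell cycle genes, and 0 were called in E11.5 XY (9 at an unadjusted p under 0.05, 3 by DESeq2) and 0 in E11.5 XX (5 and 1). The median log2 difference was -0.32 in XY and -0.27 in XX. In E13.5 XY 6 fell and 0 rose, where 1.9% of all genes fell and germ cell markers summed lower in ECKO, as given above, with a median of -0.997 against 0.05 over all genes. Rrm2, a ribonucleotide reductase subunit gene, went from 117 to 18.4 CPM (log2 difference -2.67, SE 0.41, edgeR adjusted p = 0.0086). Mybl2, a cell cycle transcription factor gene, went from 284 to 90.2 CPM (-1.66, edgeR adjusted p = 0.013), and Pola1, a DNA polymerase subunit gene, from 199 to 56.6 CPM (-1.82, edgeR adjusted p = 0.029). With a library left out the count was 2 without Control 1 or Control 4, 3 without Control 2, 6 without Control 3, 12 without ECKO 1 and 1 without ECKO 2 or ECKO 3. In Controls between the stages, 3 rose and 8 fell, where 17% and 15.4% of all genes did, and 7 in all were called without E13.5 Control 3. Rrm2 fell by 1.39, Gins2 by 2.29 (2.93 without E13.5 Control 4) and Mcm5 by 0.78.

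Growth signal genes upstream of the D-type cyclins form a list of 20, of transcription factors and feedback targets. In E11.5 XY, 19 were tested, 3 rose and 1 fell, where 1.51% and 0.616% of all genes did. Egr1 rose from 43.1 to 218 CPM (log2 difference 2.36, edgeR adjusted p = 0.00066), Fos from 3.86 to 31.7 CPM (3.06, edgeR adjusted p = 0.0035) and Myc from 0.983 to 14.6 CPM (3.88, edgeR adjusted p = 0.013). All 3 are immediate early genes of the growth factor response. With a library left out the list had 3 to 6 called genes, the most without ECKO 1. Lef1, a WNT effector gene named after its values were seen, fell by 0.83 (edgeR adjusted p = 0.027). In E11.5 XX, 0 of 19 tested were called, with 7 at an unadjusted p under 0.05 and 4 by DESeq2. In E13.5 XY 1 of 18 tested rose, where 2.99% of all genes did. It was Stat3, a cytokine response factor gene, which went from 8.85 to 93.9 CPM (log2 difference 3.38, SE 0.72, edgeR adjusted p = 0.024). Its call was lost without Control 1, Control 4, ECKO 2 or ECKO 3 (log2 difference 2.21 without ECKO 3 and 4.05 without Control 2). The list had 2 called genes without Control 2 and 6 without ECKO 1. In Controls between the stages 3 rose and 5 fell of 20, where 17% of all genes rose and 15.4% fell. Tcf7 and Tcf7l1, 2 WNT effector genes, rose by 2.16 and 2.63, and Spry2, an ERK feedback gene, fell by 2.85. At E12.5, 0 genes of the 3 lists were called by edgeR in either sex, with 3, 1 and 9 genes of the RB pathway, E2F target and growth signal lists at an unadjusted p under 0.05 in XX and 3, 2 and 6 in XY. DESeq2 called 2, 1 and 8 of them in XX and 1, 1 and 3 in XY.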

How the data were processed

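The 5 tables deposited by the authors hold counts as whole numbers, with gene symbols in rows and bulk libraries or single cells in columns. Per the submitters' processing notes, the authors used HISAT2, edgeR and the mm9 build, and per the labels' protocols single cells went through Smart-seq2 and bulk RNA through an Ovation amplification kit. How reads were assigned to genes, and whether by strand, is not given in the sources used here, so reads of overlapping genes, antisense genes and near-identical pseudogene copies cannot be told apart. The 8 bisulfite libraries were not analysed here.

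Each bulk table of deposited counts was fitted with edgeR 4.0.16 (R 4.3.3) with filterByExpr, TMM scaling, the quasi-likelihood F test and Benjamini-Hochberg adjustment over all genes tested, with calls at an adjusted p under 0.05. All 6 genes passed the filter in each comparison. Controls were compared over the 22 joined libraries. Bulk CPM use TMM factors over these libraries. E12.5 cells with at least 50000 counts and 1500 genes were summed per embryo and fitted together, 2 embryos per group, and their CPM use TMM factors over the 8 sums. The other 65 cells (median 1717 counts) were dropped, and doublets were not called. A cell titled XX ECKO but labelled wild type was kept by its title. The reads carry no molecular identifiers and need not be independent molecules, so intervals cover counting error only. SE is the edgeR log2 difference over the square root of its F statistic.

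The members, the gene lists, the tests and the rule for named genes were chosen with earlier results of these data known. Named genes were the 6 members, Eed, up to 3 called genes of smallest adjusted p per list and comparison, Cdkn1a, Cdkn1b, Cdkn1c and Ccne1 in bulk, and for each member the 2 genes of highest Spearman rho. Replicates of a group differed by more than counting error (chi-square per degree of freedom 4.78 to 204). Alternatives were DESeq2 1.42.0, other scalings and filters, a replicate block and each library or embryo left out. The edgeR scripts were tested on simulated data.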

Additional observations from a re-analysis of the deposited data

Results flagged for a closer look

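In the 4 groups of 4 libraries, the 6 genes gave 24 sets of values. In 5 of them 1 library stood apart from the other 3 by more than Dixon's limit. That limit is passed in about 1 in 20 sets of normally distributed values, which CPM need not be. The share of all genes that pass it was not computed, so nothing is read from the count of 5. Ccnd2 was at 407 CPM in E11.5 XX ECKO 4, the library with the most interstitial and endothelial markers. Ccnd3 was at 147 CPM in E11.5 XY Control 2, with the other 3 Controls at 92.5 to 99.4 CPM. Cdk6 was at 23.6 CPM in E11.5 XY ECKO 3, the library in which Ccnd1 was within the Control range. Rb1 was at 42.5 CPM in E11.5 XY ECKO 4, with the other 3 at 57.0 to 58.1 CPM. Ccnd2 was at 16.5 CPM in E13.5 XY Control 4, with the other 3 Controls at 2.38 to 4.04 CPM.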

How the results depend on the processing

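E13.5 calls rest on few libraries, E11.5 XX Controls are shallow (415291 counts at the least), and E12.5 has 2 embryos a group, so a missed call there does not show that a gene did not differ. The numbers of called members were 2 in E11.5 XY, 1 in E11.5 XX and 2 in E13.5 XY. Of all genes, 1.51%, 0.136% and 2.99% were called higher in these comparisons. The E11.5 calls took part in choosing the members, so the E11.5 numbers are a description only. Each XY number became 1 with the replicate block, the XX number became 2 with no filter on low counts, and with 1 library left out the 3 numbers ran from 0 to 2, from 0 to 1 and from 1 to 2. At E12.5 the count went from 0 to 1 with DESeq2 in XX, in XY and between Control sexes. There DESeq2 called 1085, 395 and 357 genes in all. Fits with 1 embryo left out have a lone embryo in a group, so their calls are not read. In E13.5 XY, Ccnd1 had a log2 difference of 2.30 (adjusted p = 0.13) with the replicate block and 2.11 to 2.73 with a library left out, and Ccnd2 one of 3.66 to 4.92. In Controls between stages, 5 members were called throughout.

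Of 46 values that changed sign, none belonged to a gene called in the reported fit, and for all of them the cause was not tested. In E13.5 XY, Rb1 was 0.039 with DESeq2 size factors, 0.15 with total counts alone, 0.032 with no filter and 0.041 with DESeq2. Cdkn1a there was 0.087 with total counts alone, and Ccnd3 was -0.24 with the replicate block. In E11.5 Controls between sexes, Rb1 was 0.079 with DESeq2 size factors, 0.043 with the Controls alone and 0.080 with DESeq2, and Cdkn1a was 0.020 and 0.033 with DESeq2 size factors and DESeq2. The E12.5 interaction of Cdk4 was -0.052 in thinned cells. With 1 library or embryo left out, ranges that cross 0 were -0.69 to 1.10 for Ccnd3, -0.043 to 0.37 for Cdk6, -0.62 to 0.23 for Rb1 and -1.29 to 0.15 for Cdkn1a in E13.5 XY, and -0.030 to 0.90 for Cdkn1b in E11.5 XX. Between Control sexes at E11.5 they were -0.62 to 0.76 for Ccnd2, -0.34 to 0.026 for Ccnd3, -0.28 to 0.18 for Rb1, -0.30 to 0.081 for Cdkn1a, -0.79 to 0.14 for Cdkn1b and -0.51 to 0.94 for Cdkn1c. Between stages Eed ran from -0.27 to 0.10. At E12.5 they were -0.26 to 10.1 for Cdk6 and -0.23 to 2.22 for Rb1 in XX, -1.08 to 5.60 for Ccnd1 and -0.49 to 1.36 for Rb1 between Control sexes, and in the interaction -5.27 to 1.39 for Ccnd1, -0.44 to 1.23 for Ccnd3, -0.16 to 0.56 for Cdk4 and -0.65 to 0.98 for Eed.

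Scaling by total counts alone moved the median of all genes in E13.5 XY from 0.05 to 0.28. Genes called numbered 266 in E11.5 XY (457 with no filter, 999 with DESeq2, 151 with the block, 64 to 333 with a library left out), 19 in E11.5 XX (217, 311, 35, 0 to 26) and 604 in E13.5 XY (1268, 2078, 26, 94 to 2141). At E12.5 DESeq2 called 1085 against 3 in XX and 395 against 1 in XY. The numbers of the bulk libraries did not pair them: deviations of same-numbered libraries from their group means correlated between -0.17 and 0.16, and 2 of 10 correlated best with their own number. With the block, the called genes of all 3 lists went to 0 in E13.5 XY, Eed was no longer called there (adjusted p = 0.10), and Eed and Cdkn1a were called in E11.5 XX (adjusted p = 0.020 and 0.018). No replicate block could be run at E12.5, because the column names carry embryo codes that no label ties to an embryo number. Stage and sex comparisons of Controls have no block, since their libraries come from different embryos.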
